A study of Mus musculus with 3 samples.

Results

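Integrin subunits and nephronectin, a matrix ligand of integrins, were followed in the developing mouse kidney. The genes were a chosen set of 10, comprising 7 alpha subunits (Itga1, Itga3, Itga4, Itga5, Itga6, Itga8 and Itgav), 2 beta subunits (Itgb1 and Itgb5) and the ligand gene Npnt. Array features were taken where the platform annotation gave exactly 1 gene symbol equal to one of these names. This rule found 12 features for all 10 genes, of 14433 named genes with a value on all 3 arrays. Each of the 12 features had a value on every array; 9 genes had 1 feature, and Itgav had 3, which were averaged.

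Both groups came from normal CD1 mouse embryos and carried no named allele or treatment. One was the metanephros, the first stage of the permanent kidney, at 11.5 days after mating (dpc, days post coitum), and the other the fetal kidney at 13.5 dpc. Both were taken by microdissection, with the sexes pooled. Amplified RNA of the younger kidneys (channel 1) and of the older ones (channel 2) was hybridised together on each of 3 long-oligonucleotide arrays. Arrays 1 and 2 carried the dyes in the order red/green and array 3 in the order green/red. Whether each array had its own RNA extracts is not stated in the labels. The p-values below set each mean against the scatter of the arrays, and that scatter may be technical.

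Each value is a log2 ratio of the channels, read as 11.5 over 13.5 dpc, so that a negative value stands for less RNA at 11.5 dpc. This direction is the likely one and not settled, and every direction below turns with it. Across genes, which are not independent replicates, arrays 1 and 2 correlated at 0.27, so the arrays of one dye order also agreed weakly. Array 3 correlated at 0.12 with array 1 and at -0.12 with array 2, and was used as deposited. The sign of the values of array 3 is likewise not settled. The ratios hold no levels, so the genes could not be ordered by abundance, nor could the labelled tissue be checked by the presence of its markers. In whole kidneys, fewer cells of a type and less RNA per cell cannot be told apart. The standard deviation over all 19015 rows (genes and unnamed features) was 0.56, 0.75 and 0.93 on arrays 1, 2 and 3, so the arrays differed in spread.

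Integrins are membrane receptors made of an alpha and a beta chain, which bind matrix proteins outside the cell and connect to actin through adaptor proteins inside it. The alpha chain largely sets the ligand: alpha 3 and alpha 6 bind laminins, alpha 1 binds collagens, and alpha 5, alpha 8 and alpha v bind proteins with an arginine-glycine-aspartate motif. In the kidney rudiment, nephronectin is made by the ureteric bud and lies in its basement membrane, where it is the ligand of alpha 8 beta 1 on the metanephric mesenchyme. Mice that lack Itga8 or Npnt often fail to form kidneys because the bud does not invade the mesenchyme, and the mesenchyme's output of Gdnf, the growth factor that draws in the bud, depends on this receptor.

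By their means, the 10 genes lay mostly below 0, that is, lower at 11.5 than at 13.5 dpc, and by small amounts. Arrays 1 and 2 each had 8 of the 10 below 0, while array 3 had 5 and a median of 0.024. Npnt had the lowest mean log2 ratio (-1.13 ± 1.15, SD, n = 3 arrays), followed by its receptor gene Itga8 (-0.70 ± 0.99) and the fibronectin receptor gene Itga5 (-0.58 ± 0.22). Itgb1, the beta chain shared by most of these receptors, had a mean near 0 (-0.12 ± 0.33). Of the 10 means, 8 were below 0, against 50.9% of all rows. The median of the 10 means was -0.38, against -0.0084 over all rows. No gene of the set passed limma's adjusted threshold of 0.05 (0 of 10, with adjusted p between 0.516 and 0.986), as was true of every row of the table (0% called). At an unadjusted limma p under 0.05, 1 of 10 was lower (Itga5), against 5.07% of all rows. That count was 0 without array 1, 0 without array 2 and 4 without array 3 (Itga4, Itga5, Itga8 and Npnt), where arrays of a single dye order remain. The shares of all rows in either direction were 3.87, 5.36 and 12.3% in these fits.

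**Figure D1:**
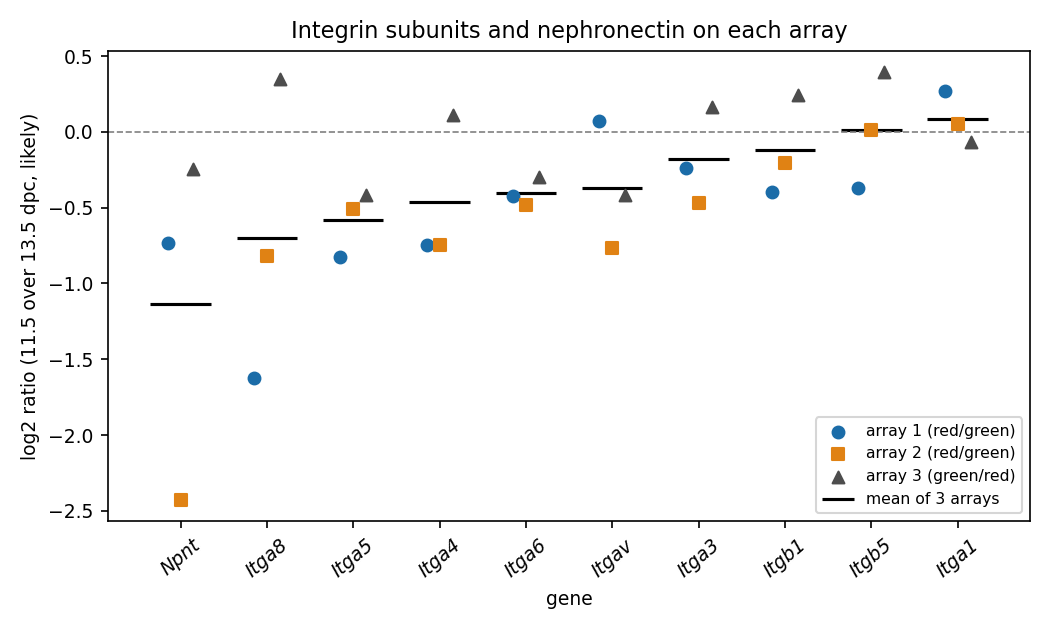
The log2 ratio (vertical axis, 11.5 over 13.5 dpc in the likely direction) is plotted for the 10 genes, ordered by mean, with 1 point for each array and a bar for the mean of the 3 arrays. Npnt, Itga5 and Itga6 lie below 0 on each array, while the points of array 3 lie above 0 for Itga8, Itga4, Itga3, Itgb1 and Itgb5.

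Npnt encodes nephronectin, the secreted ligand. Its log2 ratios were -0.73, -2.43 and -0.24 on arrays 1, 2 and 3. All 3 were below 0, and array 2 lay far below the other two. Those values stood at the 8.20, 1.76 and 36.9 percentiles of all rows on the same arrays, so on array 3 Npnt lay well within the middle of the table. The mean corresponds to a 2.20-fold lower ratio at 11.5 dpc, with a 95% interval from limma of -2.48 to 0.21 (adjusted p = 0.561). Without array 2 the mean log2 ratio was -0.49, less than the main value by more than 1.5 times. Of the 14432 other named genes, the 3 whose values lay nearest to those of Npnt by Euclidean distance over the 3 arrays were Phka2 (distance 0.164), Rgs7bp (0.260) and Pprc1 (0.265). The arrays repeat the same comparison, and among so many genes some must lie near. This nearness is therefore no sign of like expression.

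Itga8 encodes the alpha chain of the nephronectin receptor. Its log2 ratios were -1.63, -0.82 and 0.35 on arrays 1, 2 and 3. The first pair, of one dye order, was negative, and array 3, of the other dye order, was positive. On array 1 the gene stood at the 0.676 percentile of all rows, and on array 3 at the 81.8 percentile. The limma interval of the mean ran from -1.88 to 0.48 (adjusted p = 0.635). The mean was -0.24 without array 1, -1.22 without array 3 and -0.93 with the sign of array 3 turned. The named genes nearest to Itga8 over the 3 arrays were Tcirg1 (distance 0.155), Rasgrf1 (0.212) and Col9a3 (0.212). As for Npnt, this nearness is no sign of like expression.

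The difference between the ligand and its receptor chain varied from array to array. The arrays repeat the same comparison, so this variation does not test whether the genes change together. The log2 ratio of Npnt minus that of Itga8 was 0.89, -1.61 and -0.59 on arrays 1, 2 and 3, so Npnt was the less lowered gene on array 1 and the more lowered one on the others. Itga8 was lower than its partner Itgb1 on arrays 1 and 2, with differences of -1.23 and -0.62, and not on array 3, with 0.11. These differences compare changes between ages and not the amounts of either RNA.

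Markers of the tissues that make the ligand and the receptor were set beside these genes. Of 10 measured ureteric bud markers, 3 were below 0 on all arrays and 2 above, with a median of -0.055. Of 11 measured markers of metanephric mesenchyme, 6 were below 0 on all arrays and 1 above, with a median of -0.21. The shares of all rows were 18.5% below and 16.8% above. The marker medians on arrays 1, 2 and 3 were -0.21, -0.029 and -0.070 for the bud and -0.31, -0.14 and -0.083 for the mesenchyme. The part of either tissue's share in the ratios of Npnt and Itga8 was not tested.

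Itga5 encodes the alpha chain of the main fibronectin receptor. Its log2 ratios were -0.83, -0.51 and -0.41 on the 3 arrays. All were below 0, with array 1 the lowest, and they stood at the 6.33, 13.6 and 25.1 percentiles of all rows. Its limma interval ran from -1.05 to -0.12 (adjusted p = 0.516) and was the only one of the 10 that did not reach 0. Leaving out 1 array gave means of -0.46 (array 1), -0.62 (array 2) and -0.67 (array 3). With the sign of array 3 turned, the mean of Itga5 was -0.31 and the gene was no longer at an unadjusted limma p under 0.05. Itga8 was then the 1 gene of the set at that p, against 6.58% of all rows. The ligand gene Fn1 had -0.15, -0.043 and 0.14, with a mean of -0.020 ± 0.15, nearer to 0 than Itga5 on each array; it is the average of 2 features with means of -0.26 and 0.22. Itga5 lay below Itgb1 on each array, by -0.43, -0.31 and -0.65.

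The laminin receptor genes Itga6 and Itga3 differed in how well the arrays agreed. Itga6, whose product pairs with beta 1 or beta 4, had -0.42, -0.48 and -0.30, the narrowest spread of the 10 genes. Its mean of -0.40 ± 0.10 was a 1.32-fold lower ratio at 11.5 dpc, with an interval of -0.81 to 0.0080 (adjusted p = 0.539), and it was -0.20 with array 3 turned. Itga3, whose product with beta 1 is needed for the glomerular basement membrane, had -0.24, -0.47 and 0.16, negative on arrays 1 and 2 and positive on array 3. Its mean was -0.18 ± 0.32 (interval -0.71 to 0.35, adjusted p = 0.757), and it was -0.037 without array 2, -0.35 without array 3 and -0.29 with array 3 turned. The difference of Itga3 minus Itga6 was 0.19, 0.014 and 0.46, a mean of 0.22 ± 0.22 that was no larger than its spread.

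Of the 10 genes, Npnt, Itga5 and Itga6 were below 0 on all 3 arrays and none was above 0 on all 3. That is 3 of 10, while 18.5% of all rows were below 0 on all arrays and 16.8% above. None was at least 2-fold lower on every array (0 of 10, with 0.436% of all rows).

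Alpha 5 and alpha 6 chains are also known on endothelial cells. Of 10 measured endothelial markers, 8 were below 0 on all arrays and none was above, with medians of -0.61, -0.57 and -0.42 on arrays 1, 2 and 3. The shares of all rows were 18.5% below and 16.8% above, with array 3 as deposited. The median of the endothelial means was -0.44, and -0.18 with array 3 turned. Endothelium was not alone in this direction. Of 9 stroma markers, 5 were below 0 on all arrays and 3 above (median -0.29). Of 8 neural crest and neuron markers, 5 were below and 1 above (median -0.25). The smooth muscle, erythroid and leukocyte lists had medians above 0. The part of any list in the ratios of Itga5 and Itga6 was not tested.

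Itga4 encodes the chain that binds the adhesion molecule Vcam1 and fibronectin, and is carried by blood cells and migrating mesenchyme. Its log2 ratios were -0.75, -0.74 and 0.11 on the 3 arrays. Arrays 1 and 2 gave nearly one value and array 3 lay above 0. The mean was -0.46 ± 0.50 (interval -1.14 to 0.22, adjusted p = 0.610), and without array 3 it was -0.75. The ligand gene Vcam1 had a mean of -0.035 ± 0.086. Of 9 erythroid markers, 7 were above 0 on all arrays and 0 below, with a median of 1.17 (0.44 with array 3 turned). Of 9 leukocyte markers, 4 were above 0 on all arrays and 2 below, with a median of 0.078. Of 9 stroma markers, 3 were above and 5 below, and of 8 neural crest and neuron markers 1 was above and 5 below. The shares of all rows were 16.8% above and 18.5% below. The part of these lists in the ratio of Itga4 was not tested.

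Itgav encodes the alpha chain with the widest choice of beta partners, including beta 5, and binds vitronectin among other ligands. Averaged over its 3 features, it had 0.073, -0.76 and -0.41 on the 3 arrays, with a mean of -0.37 ± 0.42 (interval -0.98 to 0.25, adjusted p = 0.633). The mean was -0.59 without array 1, -0.17 without array 2 and -0.092 with array 3 turned. The features did not give one pattern. Feature 1 had -0.22, -0.70 and 0.53, with a mean of -0.13. Feature 2 had 0.91, -1.01 and -1.60, with a mean of -0.56. Feature 3, which the annotation ties to a RefSeq messenger RNA, had -0.47, -0.58 and -0.18, with a mean of -0.41 ± 0.21, and was the only one of the 3 below 0 on every array. All features were negative on array 2, while on arrays 1 and 3 they lay on both sides of 0.

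**Figure D2:**
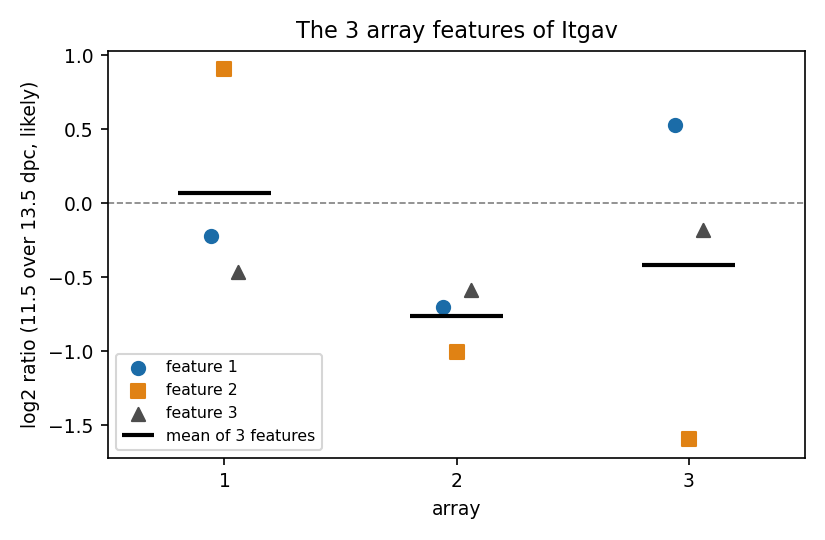
The log2 ratio (vertical axis) of each of the 3 Itgav features is plotted for arrays 1, 2 and 3 (horizontal axis), with a bar for their mean. Feature 2 runs from 0.91 on array 1 to -1.60 on array 3, while feature 3 stays between -0.58 and -0.18.

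The beta chains and Itga1 had the means nearest to 0 with array 3 as deposited. Itgb1 had -0.40, -0.20 and 0.24 on the 3 arrays (interval of the mean -0.66 to 0.42, adjusted p = 0.841). Itgb5, which pairs with alpha v alone, had -0.37, 0.011 and 0.39, with a mean of 0.012 ± 0.38 (interval -0.57 to 0.59, adjusted p = 0.986). For both genes array 1 was the lowest and array 3 the highest, and the mean changed sign in some refits: Itgb1 had 0.019 without array 1, and Itgb5 had -0.18 without array 3 and -0.25 with array 3 turned. Itga1, the chain of a collagen receptor found on mesenchyme and smooth muscle, had 0.27, 0.050 and -0.065, with a mean of 0.085 ± 0.17 (interval -0.35 to 0.52, adjusted p = 0.863) that became -0.0076 without array 1. It was the only gene of the set that was positive on arrays 1 and 2 together, and 8 smooth muscle markers had a median of 0.069.

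Ordered by mean log2 ratio, the genes ran Npnt, Itga8, Itga5, Itga4, Itga6, Itgav, Itga3, Itgb1, Itgb5 and Itga1. The limma interval of each gene held the mean of its neighbours in this order. Differences between neighbours within the arrays were not tested. The order holds for array 3 as deposited. With array 3 turned it ran Npnt (-0.97), Itga8 (-0.93), Itga4 (-0.53), Itga5 (-0.31), Itga3 (-0.29), Itgb1 (-0.28), Itgb5 (-0.25), Itga6 (-0.20), Itgav (-0.092) and Itga1 (0.13). The intervals of Itgb1, Itgb5 and Itga1 still allowed a log2 ratio of -0.35 or lower, and so do not show that these genes were at one level at both ages.

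The ratios of the set differed between the dye orders. The medians of the 10 genes were -0.41 and -0.50 on arrays 1 and 2 and 0.024 on array 3, while those of all rows were 0.011, 0.064 and -0.091. Below the median of their array were 8, 10 and 4 of the 10 genes on arrays 1, 2 and 3. Itga3, Itga4, Itga8 and Itgb1 were below 0 on arrays 1 and 2 and above 0 on array 3, which is 4 of 10 against 10.3% of all rows. With array 3 turned, these 4 were the genes below 0 on all arrays, in place of Npnt, Itga5 and Itga6.

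In a limma fit with terms for age and for dye order, the value of array 3 is subtracted from the mean of arrays 1 and 2, and the dye term is 0.5 times that difference. The dye term was below 0 for 8 of 10 genes, against 42.2% of all rows. At an unadjusted p under 0.05 it took 1 of 10 genes (Itga8), against 12.7% of all rows, and at an adjusted one 0 of 10, against 0%. It was -0.78 for Itga8 (adjusted p = 0.384), -0.67 for Npnt and -0.43 for Itga4, and it was -0.13 for Itga5 and -0.078 for Itga6. The age term of this fit was below 0 for 8 of 10 genes, against 54.4% of all rows, and took 1 of 10 (Itga5) at an unadjusted p under 0.05, against 14% of all rows. It was -0.91 for Npnt, -0.54 for Itga5 (adjusted p = 0.344), -0.44 for Itga8 and -0.38 for Itga6. In size, the age term was the larger for Npnt, Itga5, Itga6 and Itgav, and the dye term for the other genes. Only array 3 had the second dye order, so the dye order and whatever else set that array apart cannot be told apart.

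**Figure D3:**
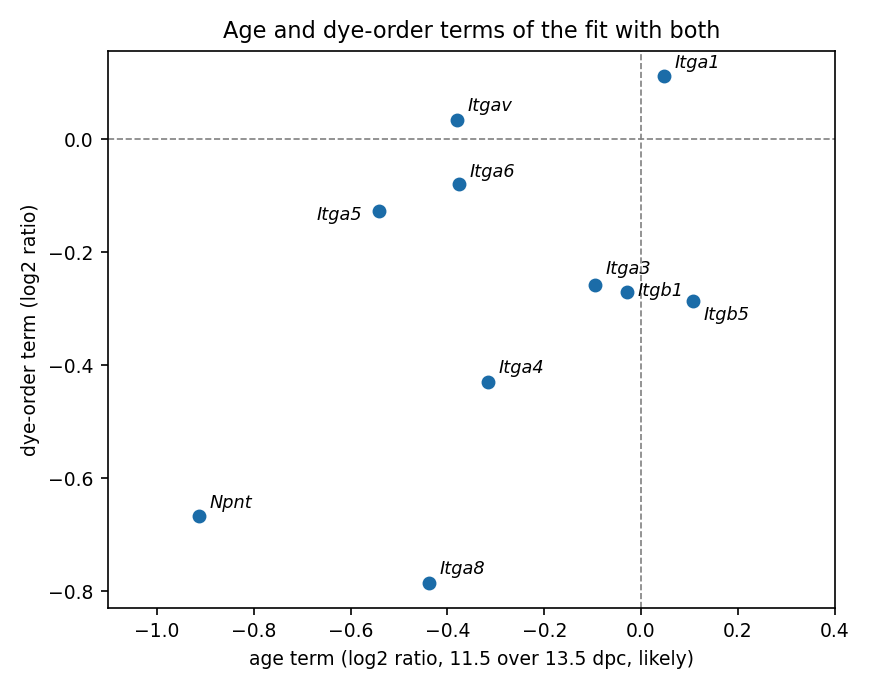
The age term (horizontal axis, log2 ratio) and the dye-order term (vertical axis, log2 ratio) of the limma fit with both are plotted for the 10 genes, 1 point a gene, without error bars because 1 residual degree of freedom is left. Itga5 and Itga6 lie near 0 on the dye axis at age terms of -0.54 and -0.38, while Itga8 has the lowest dye term (-0.78).

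The promoters of Npnt and Itga8, the ligand and receptor pair, and of Itga5, the gene with the smallest p, are shown to set the genes side by side. The table of RefSeq promoters (GRCm38.p6) held 9 of the 10 genes; Itga6 was the one not in it. Each line gives the 250 bases before the first annotated start, 5′ to 3′ on the gene's strand. Capitals mark the GC box GGGCGG or its reverse complement CCGCCC, a short motif bound by Sp1 factors. The Npnt window is chr3:132950292-132950541, the Itga8 window chr2:12301945-12302194 and the Itga5 window chr15:103366792-103367041, all on the minus strand.
Npnt: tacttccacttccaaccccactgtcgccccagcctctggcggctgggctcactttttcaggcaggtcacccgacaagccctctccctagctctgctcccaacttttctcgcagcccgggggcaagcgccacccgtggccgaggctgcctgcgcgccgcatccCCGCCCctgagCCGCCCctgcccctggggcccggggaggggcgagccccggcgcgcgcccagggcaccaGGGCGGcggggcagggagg
Itga8: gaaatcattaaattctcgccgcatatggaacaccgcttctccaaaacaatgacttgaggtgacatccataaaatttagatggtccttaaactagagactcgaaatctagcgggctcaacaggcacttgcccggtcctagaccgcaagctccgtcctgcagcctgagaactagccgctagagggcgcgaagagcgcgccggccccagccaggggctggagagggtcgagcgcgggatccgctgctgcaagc
Itga5: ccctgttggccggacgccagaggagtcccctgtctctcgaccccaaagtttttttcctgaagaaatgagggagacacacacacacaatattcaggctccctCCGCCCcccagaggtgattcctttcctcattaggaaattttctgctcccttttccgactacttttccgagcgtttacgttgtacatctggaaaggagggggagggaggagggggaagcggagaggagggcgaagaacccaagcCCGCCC
Npnt held 3 GC boxes, Itga5 held 2 and Itga8 none. Of the 9 first windows, 6 held at least 1, against 32.7% of 32851 windows of the same length over all genes. The motif CCAAT was in 0 of the 9 first windows and TATAAA in 0, searched on both strands, against 33.8% and 12.4% of all windows. The GC content of the 9 windows ran from 55.6% (Itga5) to 74.0% (Npnt), all above the median of 52.4% over all windows. Only the GC box was found in the first windows, so no motif overlapped another. Npnt and Itga3 each had a second, later window that is not shown, while the values over all windows count later windows too. The second window of Itga3 held 1 GC box and 1 CCAAT, and that of Npnt held none of these motifs. A match says only that these letters stand there, and the arrays hold no measure of binding.

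Further genes of integrin adhesion were taken from 5 lists. None of their genes passed limma's adjusted threshold (0 in each list, in either direction), and counts at an unadjusted limma p under 0.05 are given beside the background of 5.07% of rows lower and 4.17% higher. The background for 1 sign on all arrays was 18.5% of all rows below 0 and 16.8% above. Among 14 other measured integrin subunits, 1 was lower and 0 higher at that p, 5 were below 0 on all arrays and none above, and the median was -0.28. Itga9, whose product binds tenascin, had -0.30, -0.45 and -0.59 (mean -0.44 ± 0.14, adjusted p = 0.539). Itgam, a chain of macrophages, had -0.035, -0.90 and -1.31 (mean -0.75 ± 0.65, adjusted p = 0.553). Itgb4, the partner of alpha 6 in epithelium, was named after its values were seen: it had -1.95, -1.81 and 0.85, the same split between dye orders as Itga8.

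Among 27 measured ligand genes, 8 were lower and 0 higher at an unadjusted limma p under 0.05, and the median was -0.22. Of the 27, 12 were below 0 on all arrays and 2 above, against 18.5 and 16.8% of all rows. Lama4, a laminin chain of vessels, had -1.29, -1.51 and -1.48 (mean -1.43 ± 0.12, adjusted p = 0.326), and Tnc, the matrix protein tenascin C, had -1.86, -1.37 and -1.07 (mean -1.43 ± 0.40, adjusted p = 0.359). The Tnc value averages 2 features that were both below 0 on every array, with means of -2.01 and -0.85. Lamb1, a laminin chain of most basement membranes, had -0.71, -0.81 and -0.66 (mean -0.73 ± 0.08, adjusted p = 0.423). These genes were named for the smallest p of the list, and the laminin chains did not share one direction: the means of the other measured chains were -0.60 for Lama5, -0.44 for Lama1, -0.049 for Lamb3, 0.0034 for Lama3, 0.039 for Lamb2 and 0.28 for Lama2.

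Of the relatives and partners of nephronectin 6 were measured, with 0 past an unadjusted limma p of 0.05 in either direction and a median of -0.22. With array 3 turned, the medians of this list, the ligand list and the membrane partners were -0.078, -0.081 and -0.088. Gdnf had -0.21, -0.19 and -0.48 (mean -0.29 ± 0.16, adjusted p = 0.610), and its receptor gene Ret had 0.18, 0.20 and 0.53 (mean 0.30 ± 0.20, adjusted p = 0.613). Each kept 1 sign on all 3 arrays, and the signs were opposite. Egfl6, the closest relative of nephronectin and named after its values were seen, had -2.04, 0.44 and -0.69 and so changed sign between arrays of one dye order.

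Inside the cell, 29 measured adaptor and kinase genes had a median of 0.030. At an unadjusted limma p under 0.05, 5 were lower and 0 higher. Below 0 on all arrays were 7 of the 29 (24.1%) and above 0 were 3, against 18.5 and 16.8% of all rows. Zyx, encoding zyxin of focal adhesions, had -1.02, -0.98 and -0.88 (mean -0.96 ± 0.07, adjusted p = 0.359). Ilk, the integrin-linked pseudokinase, had -1.01, -0.93 and -0.59 (mean -0.84 ± 0.22, adjusted p = 0.423), and Parva, whose product binds it, had -0.73, -0.54 and -0.69 (mean -0.65 ± 0.10, adjusted p = 0.472). These genes were named for the smallest p of the list, which favours one sign on all arrays; of the 29 means, 12 were below 0. Elmo1 had the highest mean of the list, 1.56 ± 2.75, which rested on 4.70 on array 3; it too was named after its values were seen.

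Among 12 membrane partners, 2 were lower and 0 higher at an unadjusted limma p under 0.05, and the median was -0.28. Of the 12, 4 were below 0 on all arrays and none above, against 18.5 and 16.8% of all rows. Cav1, the caveolae protein of endothelium, had -1.39, -1.04 and -1.65 (mean -1.36 ± 0.31, adjusted p = 0.359). Sdc4, a heparan sulfate co-receptor at adhesions, had -0.37, -0.33 and -0.59 (mean -0.43 ± 0.14, adjusted p = 0.539).

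**Figure D4:**
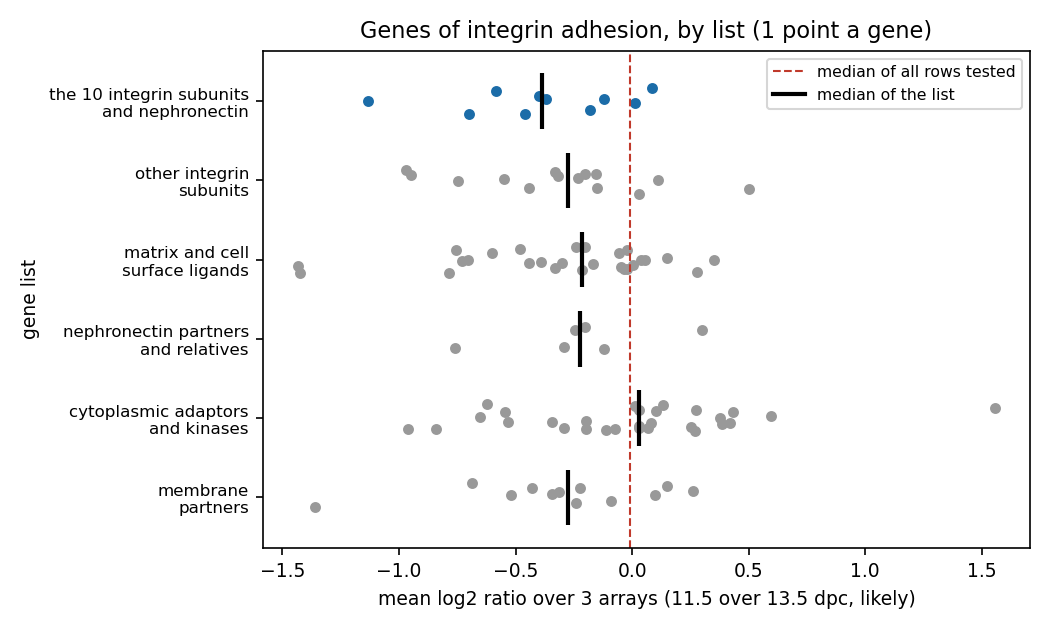
The mean log2 ratio over the 3 arrays (horizontal axis) is plotted for each gene, by list, with a black bar for the median of the list and a dashed line for the median of all rows. The 10 integrin and nephronectin genes have a median of -0.38, the other 5 lists have medians from -0.28 to 0.030, and the line of all rows stands at -0.0084, all with array 3 as deposited; with array 3 turned the 10 genes have -0.28 and the other integrin subunits -0.37.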

How the data were processed

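The deposited values are log2 ratios of both channels of each array, made by the authors; their base was found from the values, since 2 raised to each value was a whole multiple of 0.001 for 100% of values between -3 and 2, within 0.02 of that step. Per the labels, images were quantified with ImaGene 5.5, and either print-tip loess with a normalisation between arrays, or a Lowess curve through 20% of the data with the control channel floored at 10, was used. The labels do not settle which of these produced the ratios. Without the brightness of the spots, no filter on signal could be set; the number of arrays limits the precision.

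Of 22702 features, 883 controls and blanks were left out. Features with values on all arrays were averaged by symbol, which gave 19015 rows. Means were tested against 0 over all rows with limma 3.58.1 in R 4.3.3 (lmFit, eBayes, two-sided, Benjamini-Hochberg), tested on simulated data first. The genes, lists and tests were chosen with earlier results of these data known, and no set test was run. All 10 genes were named; from each list the 2 genes with the smallest p were named, or 3 from lists of over 30. Array 3 would have been turned only if its correlation with both other arrays was below 0. Alternatives were the sign of array 3, leaving out arrays, centring, scaling, quantile normalisation, a dye term, single features, rows with 2 values, an unmoderated test and array weights. Probe and protein sequences were not used here.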

Additional observations from a re-analysis of the deposited data

How the results depend on the processing

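No gene of the set passed limma's adjusted threshold under any alternative run (0 in each), and neither did any other row tested (0 in each). With array 3 turned, 5 genes had 1 sign on all arrays in place of 3, while the share of all rows with 1 sign went from 35.3 to 29.2%. Leaving out 1 array gave 3 to 8 genes of 1 sign (5, 3 and 8 without arrays 1, 2 and 3), where only 2 arrays had to meet the rule and 51.2, 54.9 and 64.5% of all rows met it. It gave 0 to 4 genes at an unadjusted p under 0.05 in place of 1, and medians of the set from -0.40 to -0.24. At that unadjusted p the ordinary one-sample test had 2 genes (9.62% of all rows) and array weights had 4 (12.9% of all rows), against 9.24% of all rows in the main test. The mean of Itgb5 changed sign with array 3 turned (-0.25) and with array weights (-0.11). Without 1 array, the mean of Itgb5 ran from -0.18 (array 3) to 0.20 (array 1), that of Itga1 from -0.0076 (array 1) to 0.16 (array 3) and that of Itgb1 from -0.30 (array 3) to 0.019 (array 1); the cause was not tested. The other 7 genes stayed below 0 in each of the 12 alternatives, but not all of these could move a mean. The unmoderated test and the rows with 2 values leave the means of the set as they were, and single features alter that of Itgav alone. The dye term, the unmoderated test and the array weights do not alter the values on each array, so they have no count of signs. Both ages lie on each array, so the test of each ratio against 0 already compares them within arrays. The arrays form 1 group, and no further pairing was possible. Signal over background was not known, so weak spots could not be told from strong ones.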
